A study of Bos taurus with 13 samples.

Results

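miRNAs carried by extracellular vesicles (EVs) of follicular fluid were compared between cows that stayed in negative energy balance and cows that had left it. The always negative cows (ANCs) were sampled at weeks 5 and 6 after calving as 2 pools, and the transition cows (TCs) were sampled at weeks 9 and 10, when their energy status was positive, as 3 pools, here called recovered TCs. These 5 libraries, chosen by the metabolic status in their labels, were 5 of the 13 of the whole series. The compared miRNAs were the 265 listed for both groups, out of 311 listed in any group, and 224 of them passed a filter on low read numbers and were tested. The other groups of the series were TCs at weeks 5 and 6, always positive cows (APCs) and heifers.

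All animals of both groups were lactating Holstein Friesian dairy cows. Fluid was aspirated from large follicles, and EVs were pelleted by ultracentrifugation. The ANC pools came from 2 cows of 5 with this phenotype, and the recovered TC pools from 7 cows of 20. How these cows were divided among pools is not given in the sources used here, so the p-values measure the spread between pools, which may be partly technical. Energy status and weeks after calving changed together between the groups and cannot be told apart.

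A miRNA is a short RNA that pairs with messenger RNAs, mainly through its seed at the 5′ end, and lowers their translation or stability. Follicular fluid mixes secretions of granulosa and theca cells with constituents of blood plasma that cross the follicle wall, and its EVs carry miRNAs of several cell types. In such a bulk measurement, fewer vesicles from a cell type and fewer copies in each vesicle cannot be told apart. After calving, a high-yielding cow spends more energy on milk than it eats, and mobilizes body fat to cover the gap.

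The recovered reads numbered 222091 and 145030 in the ANC libraries and between 284181 and 358121 in the recovered TC libraries, so the ANC values rest on fewer reads. Of the 265 miRNAs, 171 had at least 10 reads in each ANC pool and 195 had at least 10 in each recovered TC pool. Levels are given as CPM, the reads of a miRNA as a rate relative to all miRNA reads of its library, after 1 common scaling of the 5 libraries, in the order of their replicate numbers. Pools of 1 group differed from each other about as much as pools of different groups. The median absolute log2 difference over the 224 miRNAs was 0.505 between the 2 ANC pools, 0.482 to 0.774 among recovered TC pools and 0.474 to 0.754 between the groups.

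No miRNA passed the 3 criteria of the test. A miRNA was called when its log2 fold change (ANC minus recovered TC, on the log2(CPM + 5) scale) was at least 1 in size, its p-value was under 0.05 and its Benjamini-Hochberg adjusted p-value was at most 0.25. In limma, 0 of 224 (0.0%) were called, and the smallest adjusted p-value was 0.428. At an unadjusted p under 0.05 stood 13 miRNAs, of which 6 (2.68% of those tested) were higher and 7 (3.12%) lower in ANCs. The 13 are described with their values, and every other miRNA named had an unadjusted p of at least 0.05 and an adjusted p of 0.612 or higher. The edgeR quasi-likelihood test on the recovered reads also called 0, with 14 at an unadjusted p under 0.05. DESeq2 called 4, miR-424-5p as higher in ANCs and miR-132, miR-451 and miR-486 as lower, with 17 at an unadjusted p under 0.05. The values as deposited, without the common scaling of the 5 libraries, placed 1 of 16 such miRNAs on the higher side. DESeq2 size factors in place of TMM placed 7 of 12 there.

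**Figure D1:**
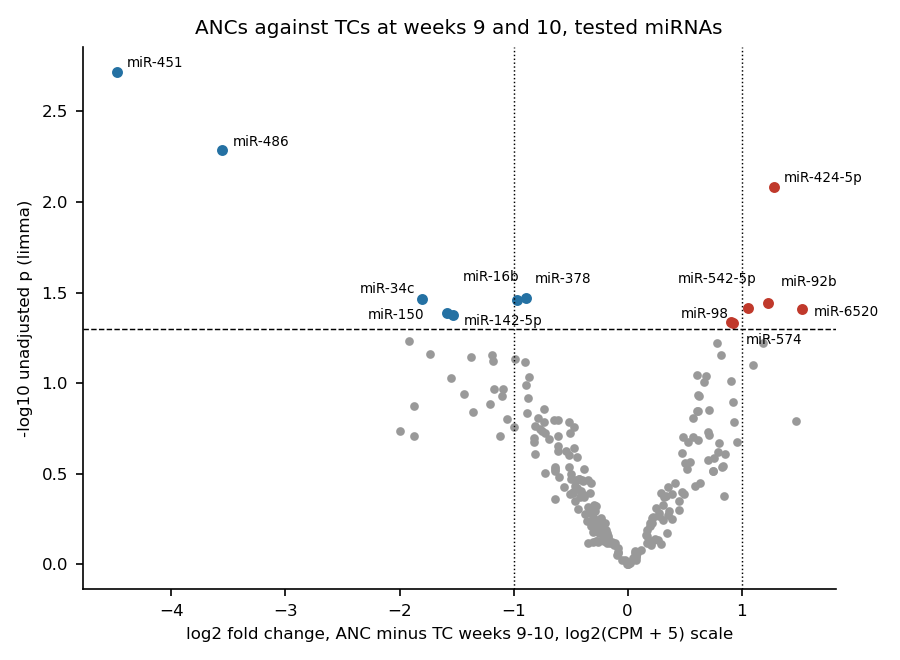
Log2 fold change (x axis, ANC minus recovered TC on the log2(CPM + 5) scale) against -log10 of the unadjusted limma p-value (y axis) for 224 miRNAs. The dashed line marks the p-value of 0.05, the dotted lines mark fold changes of 1 in size, and miR-451 and miR-486 lie apart from the other points at the upper left.

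The samples hold a 2-day structure that the groups do not explain. RNA of replicate 1 of both groups was measured on 1 day and RNA of their other replicates on another, per a supplementary table of the study. With this day as a term, limma called 6 miRNAs (2.68%), 4 higher and 2 lower in ANCs, and 33 had an unadjusted p under 0.05. The 6 were miR-424-5p, miR-450a, miR-873 and miR-92b, higher in ANCs, and miR-451 and miR-486, lower. In the fit without the day, leaving out 1 pool moved the count of called miRNAs from 0 to 5 without ANC replicate 2 and to 1 without recovered TC replicate 1.

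The pools of the groups did not overlap for 28 miRNAs with higher levels in ANCs (12.5%) and 33 with lower levels (14.7%). A single comparison of 2 against 3 pools cannot reach an exact two-sided permutation p-value below 0.1. Across the 224 miRNAs the median log2 fold change was -0.21, with quartiles of -0.51 and 0.35, and 91 lay above 0. The median standard error was 0.49, and for 6 miRNAs (2.7%) the 95% interval lay wholly between -1 and 1. Differences under a doubling were thus not resolved at this number of pools for most miRNAs.

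The widest gap was in the miRNAs of red blood cells. miR-451, which is made without Dicer in maturing red cells, stood at 0 and 36.8 CPM in the ANC pools and at 143, 716 and 308 CPM in the recovered TC pools. Both ANC pools lay below all recovered TC pools, on 0 and 5 reads against 52, 186 and 104. Its log2 fold change was -4.48 ± 0.98 (SE, n = 2 and 3; limma adjusted p = 0.428). miR-486, encoded within the ankyrin gene ANK1 and also abundant in red cells, read 138 and 1220 CPM in ANCs and 2606, 11052 and 4095 CPM in recovered TCs. Again the pools did not overlap, and the log2 fold change was -3.55 ± 0.93 (limma adjusted p = 0.577). The size rested on single pools, since without ANC replicate 1 the log2 fold changes of miR-451 and miR-486 were -2.88 and -1.93, and without ANC replicate 2 they were -6.03 and -5.10. Within both groups the same pools were high for both miRNAs, namely ANC replicate 2 and recovered TC replicate 2.

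The third red cell marker fixed for the list, miR-144, was not listed for both groups. The 2 tested members together made up 138 and 1257 CPM in ANCs and 2749, 11768 and 4404 CPM in recovered TCs. Per the methods, fluid contaminated with blood had been set aside before pooling. The part of red cell RNA in the other differences was not tested. Within the first day of RNA measurement the log2 difference of miR-451 was -4.89 and within the second -3.51, and those of miR-486 were -4.19 and -2.46. For both miRNAs the shared sign follows from the pools not overlapping.

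**Figure D2:**
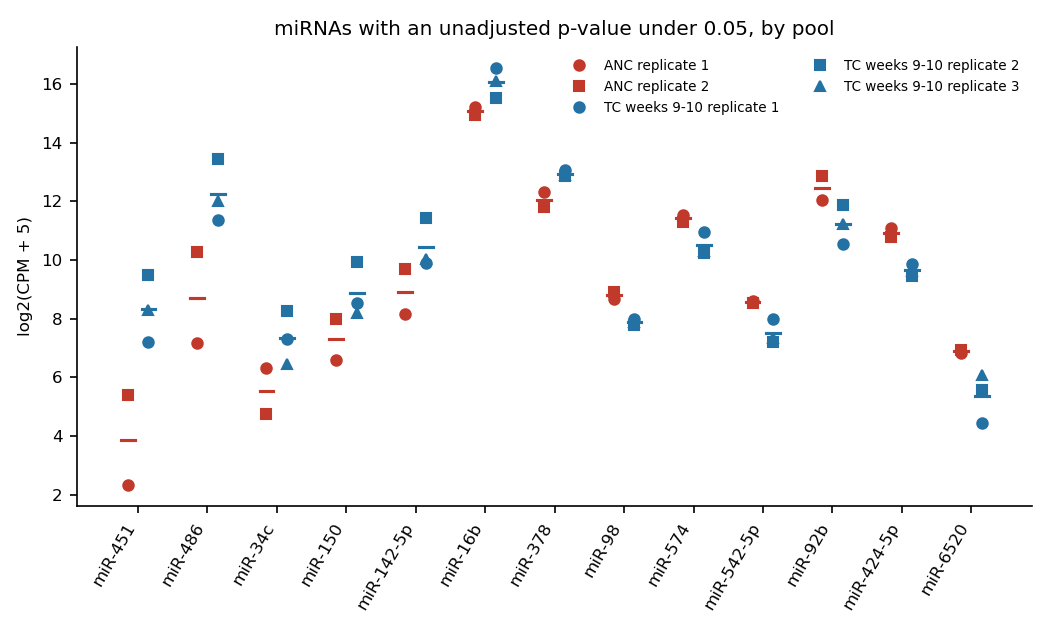
Level of the 13 miRNAs with an unadjusted p under 0.05 (y axis, log2(CPM + 5)) in each of the 5 pools, ordered along the x axis by fold change, with symbols for replicates and a short line at each group's mean. The ANC pools lie wholly below the recovered TC pools for 7 of them, from miR-451 to miR-378, and wholly above for 6. Choosing by a small p-value favours pools that lie apart. Of all 224 tested miRNAs, 14.7% were lower and 12.5% higher in ANCs without overlap.

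The leukocyte list, with 6 tested members, had 5 below 0 and 1 above, and a median log2 fold change of -0.89 beside -0.21 for all tested miRNAs. miR-150, a miRNA of mature lymphocytes, stood at 91.8 and 250 CPM in ANCs and at 364, 970 and 287 CPM in recovered TCs. The ANC pools were the lowest, although ANC replicate 2 lay close to recovered TC replicate 3 (log2 fold change -1.59 ± 0.65, limma adjusted p = 0.612). miR-142-5p, found across blood cell lineages, read 280 and 816 CPM against 949, 2760 and 1031 CPM (-1.53 ± 0.63, limma adjusted p = 0.612). Without ANC replicate 1 the log2 fold changes of miR-150 and miR-142-5p were -0.82 and -0.69, and without ANC replicate 2 they were -2.29 and -2.30.

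Other leukocyte miRNAs overlapped between the groups. miR-223, a myeloid miRNA, read 75.1 and 162 CPM in ANCs and 251, 481 and 107 CPM in recovered TCs. miR-155, induced on activation of immune cells, had a log2 fold change of -0.60 and miR-146a, a feedback inhibitor of innate signalling, one of -0.73. The member above 0 was miR-142-3p, the other arm of the miR-142 precursor, named after its values were seen, with a log2 fold change of 0.29 on 2 to 13 reads a pool. The summed level of the list was 785 and 1735 CPM in ANCs and 2360, 5174 and 1775 CPM in recovered TCs, with ANC replicate 2 just under recovered TC replicate 3. As for the red cell miRNAs, recovered TC replicate 2 had the highest sum.

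miR-16b was the most abundant of the miRNAs with an unadjusted p under 0.05. Members of the miR-15 and miR-16 family restrain the cell cycle, and miR-16 is also plentiful in red cells. miR-16b stood at 38117 and 31642 CPM in ANCs and at 95559, 46979 and 69770 CPM in recovered TCs, a log2 fold change of -0.97 ± 0.38 (limma adjusted p = 0.612). The pool with the highest miR-16b level, recovered TC replicate 1, was the one with the lowest miR-451 level of its group. miR-16a was lower in both ANC pools too, at 6580 and 5382 CPM against 8758, 7603 and 9222 CPM. Of the 6 family members tested, 4 nevertheless had fold changes above 0, or 3 with the values as deposited.

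The miR-378 family lay lower in ANCs in all 3 of its members. miR-378, encoded in an intron of PPARGC1B and tied to mitochondrial energy metabolism, read 5035 and 3558 CPM in ANCs and 8463, 7503 and 7577 CPM in recovered TCs. The recovered TC pools lay close together, and both ANC pools lay below them (log2 fold change -0.89 ± 0.35, limma adjusted p = 0.612). miR-378b had a log2 fold change of -1.38 on at most 15 reads a pool, and miR-378c one of -0.65. For both the pools did not overlap (14.7% of all tested miRNAs were lower without overlap). Reads of such near-identical family members can be split by the authors' annotation, so the 3 are not independent measurements.

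The miR-34 and miR-449 miRNAs share a seed, and those other than miR-34a are needed to make multiciliated cells of the oviduct and airway. All 3 tested members, miR-34a among them, were below 0, with a median log2 fold change of -1.80. miR-34c read 75.1 and 22.1 CPM in ANCs and 152, 304 and 83.0 CPM in recovered TCs, so ANC replicate 1 lay just under the lowest recovered TC pool. Its log2 fold change was -1.80 ± 0.70 (limma adjusted p = 0.612), on 18 and 3 reads in the ANC libraries, and it was -1.02 without ANC replicate 2 and -2.52 without ANC replicate 1. miR-449a overlapped, at 0 and 29.4 CPM against 74.5, 96.2 and 8.9 CPM. miR-34a, a target of p53 and the most abundant member, had a smaller log2 fold change of -0.47, with no overlap of pools. miR-34b was not listed for both groups.

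miR-132, induced by the luteinizing hormone surge in granulosa cells, was decided by 1 pool. It stood at 100 and 80.9 CPM in ANCs and at 3003, 166 and 77.0 CPM in recovered TCs, so recovered TC replicate 1 was far above the rest and replicate 3 lay below both ANC pools. The log2 fold change was -1.87 ± 1.32, and -0.32 without recovered TC replicate 1. DESeq2, with all 5 pools, called miR-132. miR-592, encoded in an intron of the glutamate receptor gene GRM8, read 75.1 and 51.5 CPM against 96.5, 158 and 113 CPM, with the ANC pools lower (-0.89 ± 0.48).

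Liver miRNAs, which circulate in plasma, differed between the ANC pools themselves. miR-122, which makes up most of the miRNA of hepatocytes, read 347 and 3213 CPM in ANCs and 3042, 3087 and 4724 CPM in recovered TCs. ANC replicate 1 was low and ANC replicate 2 fell among the recovered TCs, with a log2 fold change of -1.74 ± 0.82 that was -0.07 without ANC replicate 1. miR-192, shared by liver, gut and kidney, showed the same order, at 3135 and 7727 CPM against 7517, 9258 and 10384 CPM. All 4 liver list members had fold changes below 0, with a median of -0.83 and none without overlap.

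Among the miRNAs with higher levels in ANCs were members of an X-linked cluster. miR-424, miR-503, miR-450 and miR-542 are neighbours on the X chromosome, are processed from common transcripts and are expressed in granulosa cells, where miR-424 and miR-503 act on cell cycle regulators. Of the 7 tested members, 6 had fold changes above 0, 3 of them without overlap of pools (12.5% of all tested miRNAs were higher without overlap), and the median log2 fold change was 0.83. miR-424-5p stood at 2150 and 1742 CPM in ANCs and at 924, 697 and 773 CPM in recovered TCs. Both ANC pools lay well above all 3 recovered TC pools, with a log2 fold change of 1.28 ± 0.37 (limma adjusted p = 0.612). Within the first day of RNA measurement the log2 difference was 1.21 and within the second 1.24. The shared sign follows from the pools not overlapping.

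miR-542-5p read 380 and 368 CPM against 245, 142.4 and 157 CPM (log2 fold change 1.06 ± 0.43, limma adjusted p = 0.612). miR-450b, at 1774 and 1367 CPM against 987, 666 and 1034 CPM, also lay apart (0.82 ± 0.39). For miR-542-5p and miR-450b both ANC pools thus lay above every recovered TC pool. miR-450a had a log2 fold change of 1.48 ± 0.96 with overlapping pools, since ANC replicate 1 stood at 75.1 CPM and recovered TC replicate 2 at 135 CPM, and it ranged from 0.40 without ANC replicate 2 to 2.63 without ANC replicate 1. miR-503-5p was the exception below 0, at 163 and 95.6 CPM against 375.01, 92.4 and 107 CPM, where recovered TC replicate 1 alone was high. The summed level of the cluster was 5394 and 4360 CPM in ANCs and 3353, 2067 and 2492 CPM in recovered TCs.

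**Figure D3:**
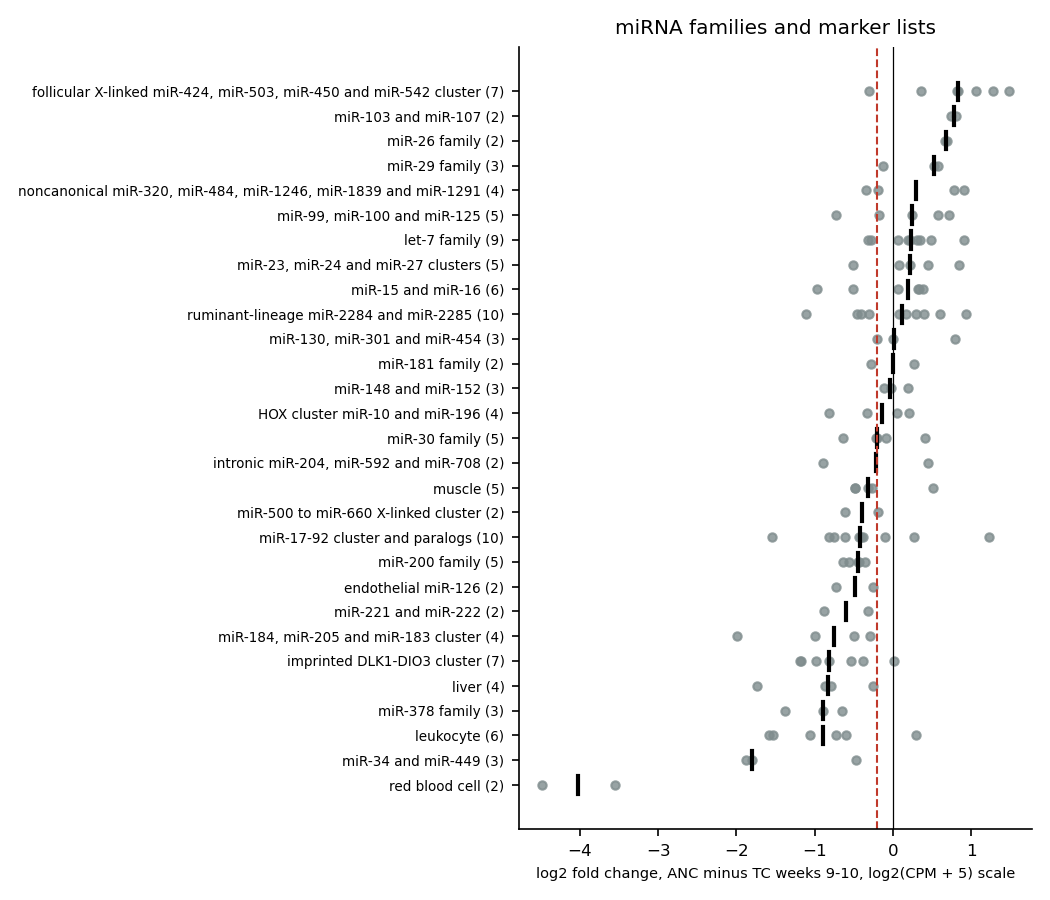
Log2 fold changes (x axis, ANC minus recovered TC on the log2(CPM + 5) scale) of the tested members of each family or marker list with at least 2 tested members (rows, number tested in parentheses). Dots are miRNAs, black ticks are list medians and the red dashed line is the median of all 224 miRNAs (-0.21), with the red blood cell list at the lower end (-4.02) and the X-linked cluster at the upper end (0.83).

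miR-202, a gonadal miRNA of granulosa and Sertoli cells, was higher in both ANC pools, at 7394 and 8800 CPM against 5576, 4281 and 6090 CPM. The log2 fold change was 0.62 ± 0.35. miR-375, a miRNA of pancreatic islets that also acts in granulosa cells, overlapped, with a log2 fold change of -0.39.

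Of the let-7 family, which promotes differentiation and is among the most abundant in follicular fluid, 7 of 9 members had fold changes above 0 (6 with the values as deposited), with a median of 0.23. miR-98, a member under another name, read 401 and 478 CPM in ANCs and 248, 216 and 231 CPM in recovered TCs. Its recovered TC values were close together and both ANC values lay above them (log2 fold change 0.91 ± 0.38, limma adjusted p = 0.612). let-7f also lay apart, at 24949 and 30253 CPM against 24627, 15560 and 19739 CPM, although ANC replicate 1 was only just above the highest recovered TC pool. let-7b and let-7a-5p overlapped, with log2 fold changes of -0.28 and 0.07, and the latter was below 0 with the values as deposited (-0.13).

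miR-92b, a paralog of miR-92a that shares its seed, stood at 4188 and 7374 CPM in ANCs and at 1489, 3749 and 2362 CPM in recovered TCs (log2 fold change 1.23 ± 0.49, limma adjusted p = 0.612). The other members of the miR-17-92 cluster and its paralogs, which drive proliferation, lay mostly on the other side, since 8 of the 10 tested had fold changes below 0 and the 2 above were miR-92b and miR-92a. miR-93 was among the 8, at -0.75, with overlapping pools. miR-6520 read 109 and 118 CPM against 16.5, 42.3 and 62.2 CPM, on 6 to 26 reads a pool (1.53 ± 0.62, limma adjusted p = 0.612). miR-574 read 2968 and 2514 CPM against 1991, 1186 and 1254 CPM (0.93 ± 0.39, limma adjusted p = 0.612). For all 3 miRNAs both ANC pools were above every recovered TC pool, which the rule for naming them required. Of all tested miRNAs, 12.5% were higher without overlap.

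miR-873, called with the day of RNA measurement, was named after its values were seen. It read 2492 and 5257 CPM in ANCs and 866, 2260 and 2024 CPM in recovered TCs, with no overlap (log2 fold change 1.19 ± 0.54 without the day).

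**Figure D4:**
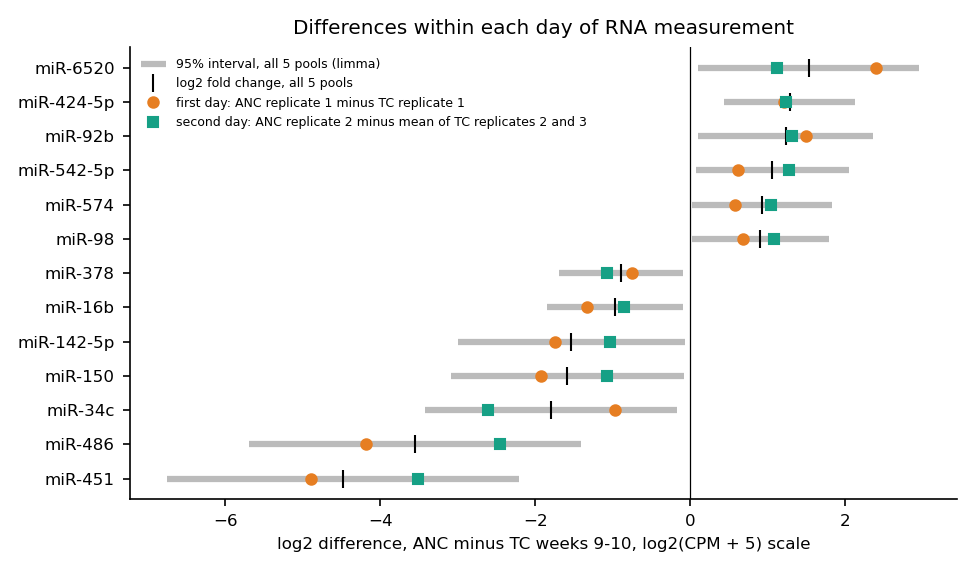
Log2 differences (x axis, ANC minus recovered TC on the log2(CPM + 5) scale) of the 13 miRNAs with an unadjusted p under 0.05 (rows), within the first day of RNA measurement (circles, 1 pool against 1) and the second (squares, 1 pool against the mean of 2). Grey bars are the 95% limma intervals over all 5 pools and black ticks the fold changes. Both days lie on the same side of 0 for each of the 13. That follows from their pools not overlapping and is no separate support.

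The miR-26 and miR-29 families held further miRNAs with higher levels in both ANC pools (12.5% of all tested miRNAs were higher without overlap). miR-26a, which lies within genes for small phosphatases, read 11803 and 16549 CPM against 9610, 10020 and 7006 CPM, and miR-26b had a like log2 fold change of 0.69 beside 0.67. miR-29a and miR-29c, which repress collagens, had log2 fold changes of 0.53 and 0.57 without overlap, while the third member, miR-29b, overlapped, with a log2 fold change of -0.12. In none of these 5 was the unadjusted limma p-value under 0.05.

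The imprinted DLK1-DIO3 cluster, which is expressed from the maternal chromosome, lay lower in ANCs in 6 of 7 tested members (all 7 with the values as deposited), 5 of them without overlap (14.7% of all tested miRNAs were lower without overlap), with a median log2 fold change of -0.82. miR-382 read 121 and 257 CPM against 452, 350 and 282 CPM (-0.98 ± 0.48). miR-432 overlapped, at 159 and 368 CPM against 1103, 558 and 273 CPM. A further 5 listed members did not pass the filter, and 7 were not listed for both groups.

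Epithelial miRNAs were below 0 throughout but overlapped. All 5 miR-200 family members, which maintain epithelial identity, had fold changes below 0, with a median of -0.45, and all 4 of the miR-184, miR-205 and miR-183 list did, with a median of -0.75. miR-200b read 1115 and 1500 CPM in ANCs and 1307, 4319 and 1452 CPM in recovered TCs, so recovered TC replicate 2 alone stood high. miR-184, a miRNA of surface epithelia, read 12.5 and 309 CPM against 91.0, 1297 and 201.5 CPM, a span within each group wider than the gap between them. miR-205, of squamous and basal epithelia, had a log2 fold change of -0.999 ± 0.669. Of other cell types, 4 of 5 tested muscle miRNAs and both arms of the endothelial miR-126 had fold changes below 0, with medians of -0.32 and -0.49, and none lay apart.

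Of the 10 most abundant miRNAs, miR-16b and miR-423-5p were those without overlap (27.2% of all tested miRNAs lay apart in either direction). miR-423-5p, a plasma and EV miRNA, read 57151 and 63563 CPM in ANCs and 39746, 46459 and 33646 CPM in recovered TCs (log2 fold change 0.61 ± 0.31). miR-21-5p, a growth-promoting miRNA, was the most abundant, at 53038 and 64806 CPM against 52626, 154960 and 58752 CPM, where recovered TC replicate 2 was high. miR-320a, made without Drosha, read 46876 and 101230 CPM against 26551, 59929 and 31290 CPM, with overlap. miR-92a, let-7i, miR-25 and miR-143 overlapped, with log2 fold changes of 0.27, 0.23, -0.38 and -0.32. miR-1839, also formed without the usual processing, lay apart at 6905 and 10425 CPM against 4332, 5320 and 5156 CPM (0.79 ± 0.36).

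The levels were placed among all 13 pools after scaling them together, as a description with no test, since the ANC and recovered TC pools are part of both views. Of 262 miRNAs listed in all groups, both ANC pools lay above the other 11 pools for 11 (4.2%) and below them for 6 (2.29%). Higher than every other pool were, among others, miR-98, miR-202, miR-450b, miR-99b and let-7f, and lower were miR-451, miR-150 and miR-142-5p. The 3 recovered TC pools lay above the other 10 for 2 miRNAs (0.763%), miR-19a and miR-592, and below them for 3 (1.15%), miR-26b, miR-151-5p and miR-652, which were named after their values were seen.

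On this scale miR-451 stood at 0 and 33.5 CPM in ANCs, 126.5 to 667.0 CPM in recovered TCs, 37.7 to 144.2 CPM in TCs at weeks 5 and 6, 143.6 and 768.5 CPM in APCs and 121 to 371 CPM in heifers. The lowest TC pool of weeks 5 and 6 was thus only just above ANC replicate 2. miR-150 was highest in heifers, at 687 to 997 CPM, and lowest in ANCs, at 87.2 and 228 CPM. miR-424-5p separated ANCs from recovered TCs but not from TCs at weeks 5 and 6, which spanned 688 to 2898 CPM around the ANC values of 2040 and 1587 CPM. miR-34c reached 7828 CPM in 1 TC pool of weeks 5 and 6. The other 2 pools, at 78.8 and 72.1 CPM, lay close to ANC replicate 1 at 71.3 CPM. miR-378 averaged 4009 CPM in ANCs, 4493 in APCs, 4453 in heifers, 6228 in TCs at weeks 5 and 6 and 7055 in recovered TCs. miR-16b averaged 32490 CPM in ANCs, 34020 in TCs at weeks 5 and 6, 36850 in APCs, 63280 in recovered TCs and 64250 in heifers. miR-592 was higher in recovered TCs (85.1 to 147 CPM) than in any other group. Its ANC values of 71.3 and 46.9 CPM came next, above the 14.98 to 41.20 CPM of all other pools. miR-26a averaged 13140 CPM in ANCs and 17250 in APCs, and miR-29a 17270 in ANCs and 17080 in TCs at weeks 5 and 6.

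**Figure D5:**
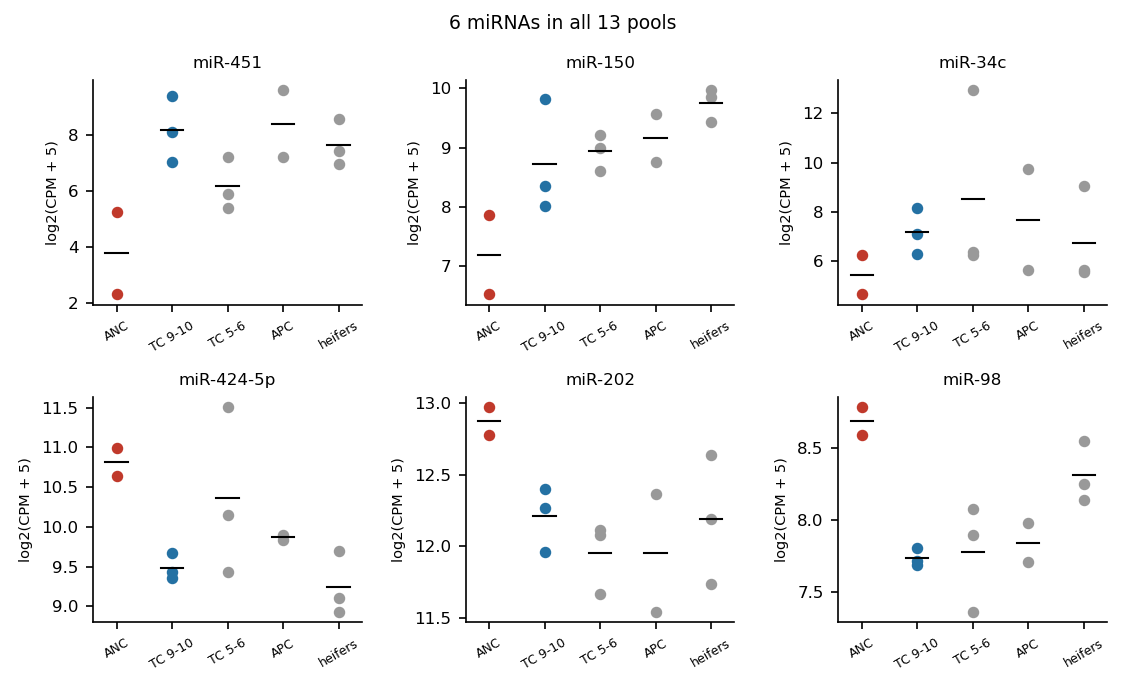
Levels (y axes, log2(CPM + 5), each panel with its own range) of 6 miRNAs in the 13 pools by group, with dots for pools and lines for group means. The ANC pools are the lowest for miR-451 and miR-150 and the highest for miR-202 and miR-98, while for miR-424-5p 1 TC pool of weeks 5 and 6 is higher.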

How the data were processed

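Small RNA libraries of EVs from pooled follicular fluid were made by the authors with a QIAseq kit, trimmed with Cutadapt 1.11, mapped to UMD3.1 with Bowtie2 2.2.2 (versions per the submitters' processing notes and the methods), annotated against miRBase and scaled with TMM. The deposited values are normalized CPM, not logged. For libraries whose total TMM lifts past that of plain CPM, the deposited column was recorded as signal, made by the authors in the same way. Groups came from the labels.

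Low values were whole multiples of 1 read, so reads were recovered (100.0% of values whole in each library, tolerance 0.1), and the 5 libraries were scaled together with TMM over the 265 shared miRNAs. Low miRNAs were removed with filterByExpr (minimum count 10, minimum total 15). log2(CPM + 5) was tested with limma 3.58.1 with a mean-variance trend (R 4.3.3). On this scale fold changes of low miRNAs are understated. edgeR 4.0.16 and DESeq2 1.42.0 on recovered reads, other scalings, filters and pseudocounts, shared spread, the day of RNA measurement, a replicate block and leaving out each pool were alternatives. 3 reads corresponded to 8.25 to 18.96 deposited CPM. The scripts were tested on simulated data.

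Named miRNAs were those called, those with an unadjusted p under 0.05 and no overlap (up to 12 a direction), the 10 most abundant, the study's transition miRNAs, up to 4 of each list, and miRNAs of 1 group's list with over 3 reads in each of its pools. The comparison, lists and tests were chosen with earlier results of these data known. miRNA neighbours came from RefSeq's ARS-UCD2.0 table, by name, for 265 of 265. No miRNA sequence was used here.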

Additional observations from a re-analysis of the deposited data

Results flagged for a closer look

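let-7a-3p, the passenger strand of a let-7a precursor, was listed for recovered TCs and not for ANCs, and it lies outside the comparison for that reason. It had 5, 4 and 6 reads in the recovered TC libraries, so its lowest value of 4 reads lay above the limit of 3 reads that a count of 0 allows. The limit was set in reads, not on a common scale, and the ANC libraries hold fewer reads. In the ANC libraries 3 reads stood for 11.11 and 18.96 deposited CPM, against 8.25 to 11.62 in the recovered TC libraries. No level in ANCs was analysed. Of 17 miRNAs listed for recovered TCs only it was the 1 above that limit in each pool, and of 8 listed for ANCs only 0 were.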

How the results depend on the processing

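The count of called miRNAs was 0 and rose to 2 with total counts in place of TMM, 4 with DESeq2, 1 in the fit over all 13 libraries, which shares their spread and tests 244 miRNAs in place of 224, and 6 with the day of RNA measurement, and leaving out 1 pool gave 0 to 5. The count at an unadjusted p under 0.05 was 13, 21 over all 13 libraries, 33 with the day, and 11 to 22 without 1 pool, with 22 reached without ANC replicate 1. The lone ANC pool was then assumed to vary like the recovered TC pools. With a replicate block, 25 were called (6 higher, 19 lower) and 42 had an unadjusted p under 0.05. The numbers share only a number between different cows, and their deviations correlated at 0.4 and 0.513 over 2 pairs. Of the miRNAs named, let-7a-5p reversed with the values as deposited (-0.13) and the block (-0.01), and miR-142-3p with the block (-0.23). Without 1 pool, the log2 fold change of let-7a-5p ranged from -0.05 to 0.26 and that of let-7i from -0.04 to 0.56. That of miR-142-3p ranged from -0.75 to 1.39, miR-29b from -0.36 to 0.15 and miR-184 from -4.08 to 0.16. That of miR-205 ranged from -2.01 to 0.08 and miR-21-5p from -0.70 to 0.08. That of miR-503-5p ranged from -0.67 to 0.32 and miR-92a from -0.04 to 0.53. The cause was not tested. The values as deposited moved the median log2 fold change of all miRNAs from -0.21 to -0.40. The median standard error was 0.62 for the 56 miRNAs with the lowest levels and 0.38 for the 56 with the highest.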
